A study of Rattus norvegicus with 5 samples.

Results

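The transcripts of *Mdm2* and of 5 genes known as targets of p53 (*Cdkn1a*, *Gadd45a*, *Bax*, *Ccng1* and *Btg2*) were followed in cultured hypothalamic cells. These were cells sorted for a reporter of the *Trh* promoter, unselected cells of transfected cultures and non-transfected cells. All probe sets to which the platform annotation gives one of these symbols alone were taken, each on its own. They were 11 of the 8740 probe sets of an Affymetrix rat expression array that are not controls, with 4 for *Mdm2*, 2 for *Cdkn1a*, 4 for *Gadd45a* and 1 for *Ccng1*. The 3 probe sets given to *Bax* carry a second symbol and are not named here, and no probe set carries the symbol *Btg2*, so that 4 of the 6 genes could be read. The genes were chosen with the difference of *Mdm2*, *Cdkn1a* and *Gadd45a* between GFP+ and GFP+/- cells known, so the values of that comparison are a description and are not tested. The comparisons with NT cells reuse those arrays, so their p-values are not free of that choice.

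The cells were primary cultures of the hypothalamus of Wistar rat embryos at day 17 (E17). GFP+ cells (2 arrays) had been transfected with GFP under the minimal *Trh* promoter and sorted for GFP, and their RNA was a pool of 6 experiments. GFP+/- cells (2 arrays) came from cultures given the same transfection but ran through the sorter unselected, and by the paper few such cells were GFP+. NT cells (1 array) received no vector, and the methods name no passage through the sorter for them. RNA of both was pooled from 3 experiments each, which the paper calls other than the 6 of GFP+ cells. Cell population and culture preparation thus cannot be told apart in comparisons with GFP+ cells. Since GFP was carried by transient transfection, GFP+ cells are those that both took up the vector and used the promoter. Per the methods, paired arrays held aliquots of the same RNA, although their labels name biological replicates, so the p-values measure the spread between arrays only, and the NT array was taken to vary like the others. Values are MAS 5.0 signals, linear intensities with the same trimmed mean on each array. Signals served to rank probe sets as bright or dim and were summed over marker lists. They were otherwise not compared between probe sets.

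The p53 protein is a transcription factor that damaged or stressed cells accumulate. It switches on genes that halt division or start apoptosis, and it also switches on *Mdm2*, whose product is the ubiquitin ligase that sends p53 to degradation, so that the pair forms a feedback loop. In developing neurons the pathway is known for its part in the death of surplus cells and in leaving the cell cycle. It binds DNA at a pair of half-sites, each of 10 letters (3 purines, C, a pair of A or T, G and 3 pyrimidines).

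Of the 5 promoters looked at (those of *Mdm2*, *Cdkn1a*, *Gadd45a*, *Ccng1* and *Btg2*), only those of *Cdkn1a* and *Ccng1* held a full pair of half-sites, and they are shown. The window was the 250 bases before the transcript start of the RefSeq promoter table. Whether such sites bear on the signals was not tested. The capitals mark the 20 letters of the pair, each with 1 mismatch to the pattern, beginning 201 bases upstream in *Cdkn1a* (chr20:7150682-7150931, plus strand) and 242 bases upstream in *Ccng1* (chr10:25684877-25685126, minus strand; RefSeq, GRCr8).
Cdkn1a: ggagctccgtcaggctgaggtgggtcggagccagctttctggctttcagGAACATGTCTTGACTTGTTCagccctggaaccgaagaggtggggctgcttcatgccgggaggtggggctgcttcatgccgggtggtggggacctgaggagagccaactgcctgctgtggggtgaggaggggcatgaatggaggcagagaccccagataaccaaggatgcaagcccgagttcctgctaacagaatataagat
Ccng1: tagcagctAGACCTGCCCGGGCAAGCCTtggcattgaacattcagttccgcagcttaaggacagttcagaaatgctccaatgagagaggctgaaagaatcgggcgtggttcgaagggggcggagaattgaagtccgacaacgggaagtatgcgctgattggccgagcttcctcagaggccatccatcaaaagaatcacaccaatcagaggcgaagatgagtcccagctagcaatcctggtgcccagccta
A pair with at most 2 mismatches was found in 0.72% of 33469 rat promoters of this length, and a half-site without mismatch in 6.64%. *Gadd45a* (chr4:97486800-97487049, minus strand) held the half-site GGGCTAGCCC 48 bases upstream and no pair, and neither was found for *Mdm2* and *Btg2*. The pattern reads alike on both strands. The starts used for *Cdkn1a* and *Mdm2* are not the outermost ones of the gene spans given below, so that part of the *Cdkn1a* window and all of the *Mdm2* window (chr7:55200792-55201041, minus strand) lie inside these spans. The best known p53 site of human *GADD45A* lies in an intron, and that of rat *Gadd45a* was not searched. For all 5 genes, *Mdm2* included, sites outside these windows were not searched. A match describes the letters and does not show binding.

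Across the 11 probe sets, 5 were more than 2-fold brighter in GFP+ than in GFP+/- cells by the ratio of averaged signals (8.89% of all probe sets were), and 1 was more than 2-fold dimmer (4.18% of all). Both GFP+ arrays lay above both GFP+/- arrays for 7 of them (30.4% of all) and below for 1 (15.4% of all). As deposited, 777 probe sets in all were past 2-fold higher and 365 lower. These numbers were 568 and 520 with quantile normalization and 601 and 505 with equal medians, while the 5 and 1 did not change. These shares are a description, since the choice of genes used this comparison. The median log2 difference of the 11 was 0.58, against 0.13 over all probe sets, with a range of -2.10 to 3.10. This median is the value of the *Mdm2* probe set AA108308_i_at, whose signals are near the lowest value of 1 used here, and which had 0.29 with quantile normalization and 0.049 with 16 added to each signal. Of the 11, 4 were among the brightest 41% of probe sets (mean signal over the 5 arrays of 175 or more), 1 for each gene, and 7 were dimmer. No filter on low signals was applied, so none of the 11 was lost.

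**Figure D1:**
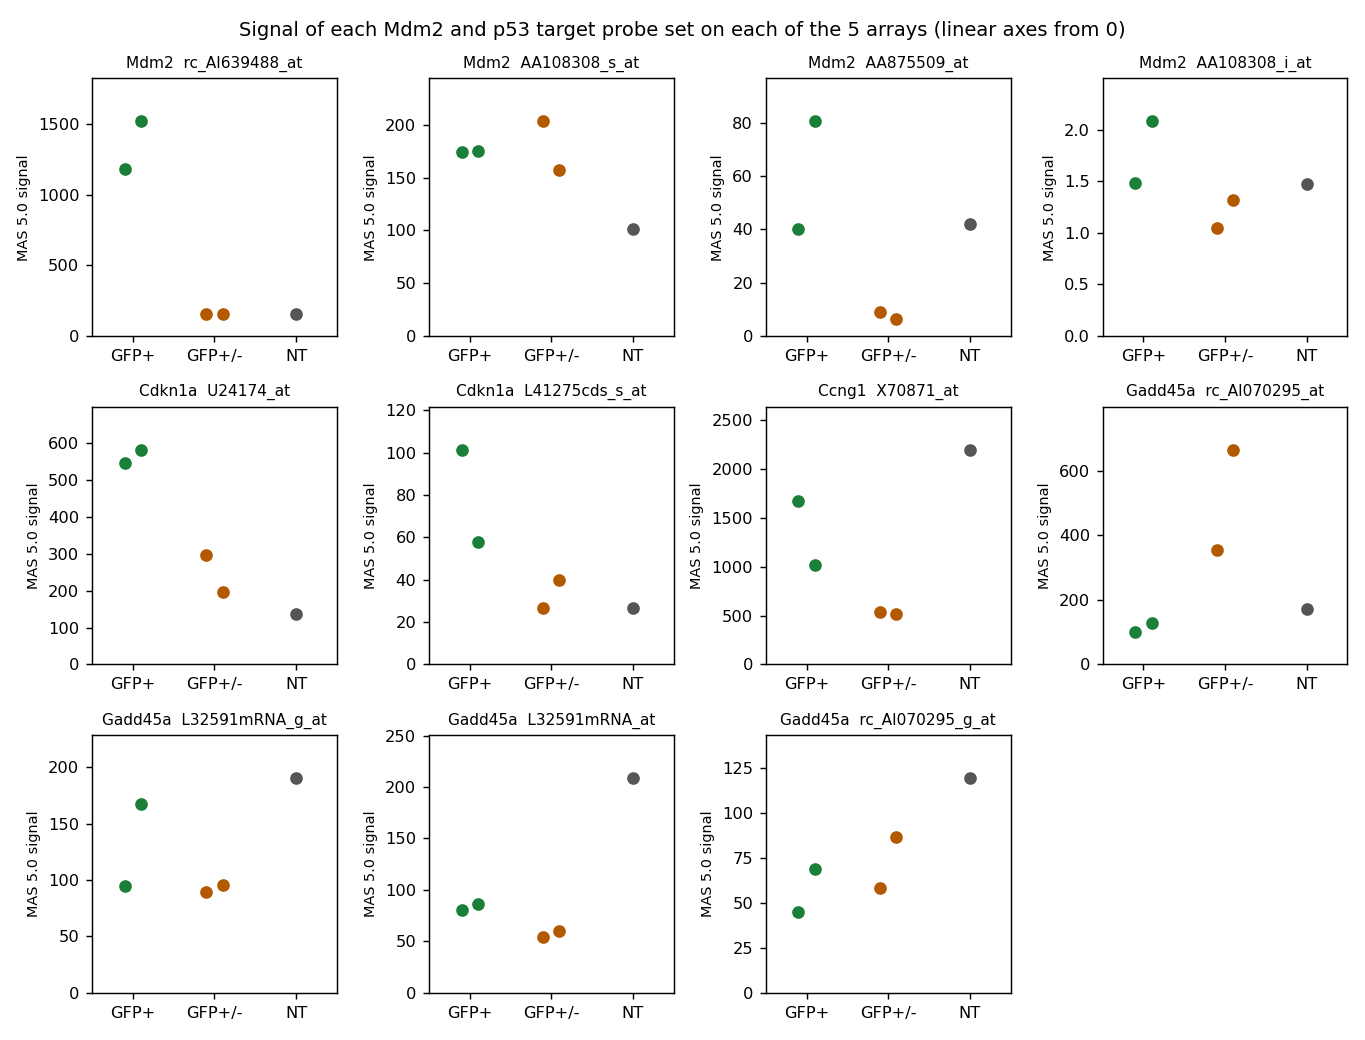
MAS 5.0 signal (linear vertical axis from 0, its own for each panel) of each of the 11 probe sets, with 1 point per array of GFP+, GFP+/- and NT cells. In the brightest *Mdm2* panel both GFP+ arrays (1180.1 and 1519) stand clear of the other points (153 to 157), whereas for *Ccng1* the NT point, at 2194, is the highest.

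*Mdm2* (chr7:55176558-55201757, GRCr8 as for the genes that follow), the p53 antagonist, was read by 4 probe sets, which did not give one picture. The brightest (rc_AI639488_at) had signals of 1180.1 and 1519 in GFP+, 157 and 156 in GFP+/- cells, against 153 in NT cells. The GFP+ arrays thus stood far above the other 3, which lay within a few units of each other. The log2 difference was 3.10 (SE 0.21) over GFP+/- cells and 3.13 (SE 0.26) over NT cells, where it passed the test (limma, adjusted p = 0.00808). GFP+/- cells did not differ from NT cells past the test (0.03, SE 0.26, adjusted p = 0.966).
A dim *Mdm2* probe set (AA875509_at) had 40.0 and 80.6 in GFP+, 8.90 and 6.51 in GFP+/- cells, against 42.2 in NT cells. Here too GFP+ lay above GFP+/- cells, by 2.90 (SE 0.56) on the log2 scale or 1.64 with 16 added to each signal, but the NT array fell between the GFP+ arrays, which were 2.01-fold apart. It is the one probe set of the 11 whose GFP+ arrays differed by more than 2-fold (15.6% of all probe sets did).
The *Mdm2* probe set AA108308_s_at had 174 and 175 in GFP+, 203 and 157 in GFP+/- cells, against 102 in NT cells, so that the GFP+ arrays lay inside the range of the GFP+/- arrays. Its log2 difference was -0.03 (SE 0.27) over GFP+/- cells and 0.78 (SE 0.33, adjusted p = 0.224) over NT cells. The last one (AA108308_i_at) had signals between 1.05 and 2.08 on all 5 arrays. At such signals a log2 difference (0.25 for GFP+ over NT cells) says little, and with 16 added it was 0.025. Over NT cells the other 3 *Mdm2* probe sets had log2 differences of 0.43 to 3.13 in GFP+ cells, of which that of the brightest passed. The lowest, that of AA875509_at, was -0.076 without GFP+ replicate 2.

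*Cdkn1a* (chr20:7150820-7161373) encodes p21, an inhibitor of cyclin-dependent kinases that halts the cell cycle. Its brighter probe set (U24174_at) had 545 and 581 in GFP+, 297 and 196 in GFP+/- cells, against 137 in NT cells, so the populations did not overlap and GFP+/- cells lay between the others. The ratio of averaged signals was 2.29 over GFP+/- and 4.10 over NT cells. On the log2 scale *Cdkn1a* differed by 1.22 (SE 0.26) from GFP+/- cells, and it exceeded NT cells by 2.03 (SE 0.32, adjusted p = 0.0235). GFP+/- cells differed from NT cells by 0.81 (SE 0.32, adjusted p = 0.194), which did not pass.
The dimmer *Cdkn1a* probe set (L41275cds_s_at) had 101 and 58.0 in GFP+, 26.5 and 40.0 in GFP+/- cells, against 26.5 in NT cells. Its GFP+ arrays were also the highest, with a log2 difference of 1.24 (SE 0.50) over GFP+/- and 1.53 (SE 0.61) over NT cells, which did not pass (adjusted p = 0.201). Both *Cdkn1a* probe sets lay more than 2-fold higher in GFP+ than in GFP+/- cells, but neither did so under every alternative. The log2 difference of U24174_at was 0.92 without GFP+/- replicate 2, and that of L41275cds_s_at was 0.84 without GFP+ replicate 1, 0.94 without GFP+/- replicate 1 and 0.94 with 16 added to each signal.

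*Ccng1* (chr10:25678503-25684876) encodes cyclin G1, which recruits a phosphatase to Mdm2. Its probe set (X70871_at) had 1672 and 1020.1 in GFP+, 532 and 516 in GFP+/- cells, against 2194 in NT cells. The GFP+/- arrays were the lowest and the NT array the highest, with the GFP+ arrays, 1.64-fold apart, between them. The log2 difference of GFP+ cells was 1.32 (SE 0.26) over GFP+/- cells (0.96 without GFP+ replicate 1) and -0.75 (SE 0.32, adjusted p = 0.232) over NT cells. GFP+/- cells were lower than NT cells, with a log2 difference of -2.07 (SE 0.32, adjusted p = 0.0227). *Ccng1* was therefore brighter in sorted than in unselected transfected cells, but not than in cells that had not been transfected.

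*Gadd45a* (chr4:97484497-97486799), a stress gene whose product binds Pcna and p21, was read by 4 probe sets of 2 accessions. The brightest (rc_AI070295_at) had 99.8 and 128 in GFP+, 354 and 665 in GFP+/- cells, against 171 in NT cells. Both GFP+ arrays were the lowest and both GFP+/- arrays the highest, with a log2 difference of -2.10 (SE 0.36). The other probe set of the same accession (rc_AI070295_g_at) had 44.9 and 68.9 in GFP+, 58.3 and 86.4 in GFP+/- cells, against 119 in NT cells, so that GFP+ and GFP+/- arrays overlapped and NT was highest.
The *Gadd45a* probe set L32591mRNA_at had 80.3 and 86.6 in GFP+, 54.1 and 59.9 in GFP+/- cells, against 208 in NT cells. Its log2 difference was 0.55 (SE 0.32) between GFP+ and GFP+/- cells, opposite to the brightest one. GFP+/- cells were lower than NT cells, with a log2 difference of -1.87 (SE 0.39, adjusted p = 0.0432), while GFP+ cells, at -1.32 (SE 0.39, adjusted p = 0.103), did not pass. Its partner L32591mRNA_g_at had 95.0 and 167 in GFP+, 89.1 and 95.3 in GFP+/- cells, against 190.1 in NT cells, and here GFP+ and GFP+/- arrays overlapped. Over the 4 probe sets, GFP+ cells had log2 differences from -1.32 to -0.59 against NT cells, all below 0 and none past the test. The disagreement between probe sets was thus confined to the comparisons with GFP+/- cells, where the 4 ran from -2.10 to 0.55 for GFP+ over GFP+/- and from -1.87 to 1.51 for GFP+/- over NT cells.

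*Btg2* is an antiproliferative gene known as a marker of progenitors about to divide into neurons. The study names the accession M60921 as *Btg2*. Its probe sets have no symbol in the annotation and lie outside the rule, and they are given apart from the others. M60921_at had 2065 and 1884 in GFP+, 1026 and 981 in GFP+/- cells, against 1202 in NT cells, and the GFP+ arrays were the highest. Its log2 difference was 0.98 (SE 0.16) over GFP+/- and 0.71 (SE 0.19, adjusted p = 0.0838) over NT cells. M60921_g_at had 927 and 1351 in GFP+, 719 and 568 in GFP+/- cells, against 685 in NT cells. Its log2 differences were 0.81 (SE 0.25) over GFP+/- and 0.71 (SE 0.30, adjusted p = 0.229) over NT cells.

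**Figure D2:**
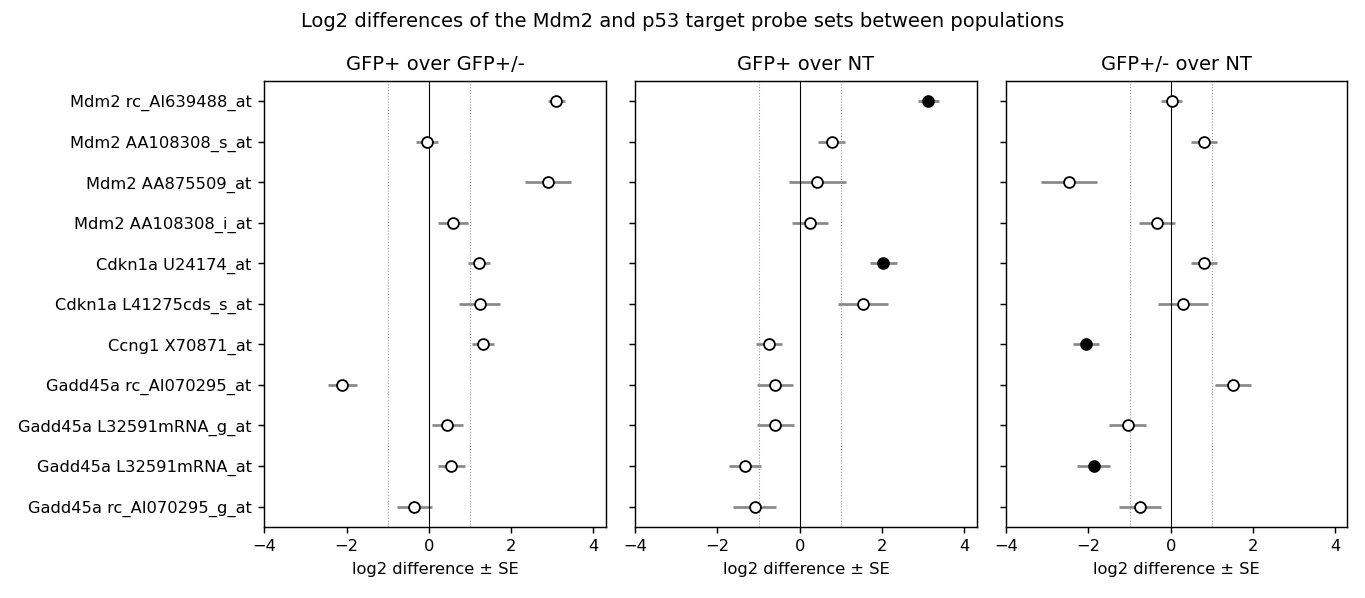
Log2 differences (horizontal axis, bars are SE from limma) of the 11 probe sets for GFP+ over GFP+/-, GFP+ over NT and GFP+/- over NT cells. Filled points passed an adjusted p of 0.05 in the panels over NT, the first panel is not tested, and dotted lines mark 2-fold. *Mdm2* (3.13) and *Cdkn1a* (2.03) are filled over NT in GFP+ cells, *Ccng1* (-2.07) and a *Gadd45a* probe set (-1.87) in GFP+/- cells.

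In the comparison of GFP+ with NT cells, 2 of the 11 probe sets were higher (4.38% of all probe sets were) and 0 were lower (4.06% of all) by limma. Before adjustment (p under 0.05) these numbers were 3 (12.9% of all) and 1 (11.4% of all). Both GFP+ arrays lay above the NT array for 5 probe sets (41.5% of all) and below it for 5 (35.9% of all), namely the 4 of *Gadd45a* and that of *Ccng1*. In GFP+/- against NT cells 0 were higher (4.20% of all) and 2 lower (5.03% of all), and before adjustment 3 (11.4% of all) and 3 (13.5% of all). Both GFP+/- arrays lay above the NT array for 4 (35.2% of all) and below it for 6 (44.0% of all). The comparisons share arrays and are not independent of each other. The GFP+ and GFP+/- arrays also entered the choice of the genes, so the calls over NT cells are not independent of that choice. All 4 calls were lost with a prior variance that ignores the signal level (adjusted p from 0.0659 to 0.102). Without GFP+ or GFP+/- replicate 1 or 2, which leaves 1 residual degree of freedom instead of 2, the calls of *Mdm2* and *Cdkn1a* (adjusted p from 0.0546 to 0.113) and of *Gadd45a* (adjusted p from 0.0780 to 0.177) were lost. That of *Ccng1* held without either GFP+ array (adjusted p = 0.0410 and 0.0414) and was lost without either GFP+/- array (adjusted p = 0.127 and 0.136). The differences moved little, to between 2.95 and 3.31 for *Mdm2*, between 1.99 and 2.08 for *Cdkn1a*, between -2.09 and -2.05 for *Ccng1* and between -1.95 and -1.80 for *Gadd45a*.

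Some facts of the arrays stand beside these values. The 3' to 5' signal ratio of the *Gapdh* control was 14.6 and 17.6 in GFP+, 12.7 and 14.2 in GFP+/-, against 5.45 in NT cells. That of the beta-actin control was 22.9 and 18.7 in GFP+, 31.4 and 14.4 in GFP+/-, against 10.9 in NT cells. Both ratios were lowest in NT cells, and that of beta-actin lay far apart between the GFP+/- arrays. Their part in the comparisons was not tested. Signals of cell type markers differed as well. All 12 measured neuronal markers of 15 listed had log2 differences above 0 in GFP+ over GFP+/- cells, with summed signals of 25350 to 29166 in GFP+, 19580 to 20967 in GFP+/- cells, against 38301 in NT cells. The 14 of 15 fibroblast and matrix markers summed to 16074 to 22683 in GFP+, 46295 to 47006 in GFP+/- cells, against 21629 in NT cells. The 8 of 10 astrocyte markers summed to 26548 to 29057 in GFP+, 26505 to 30287 in GFP+/- cells, against 20771 in NT cells, and the 9 of 12 proliferation markers to 26344 to 30601 in GFP+, 33124 to 38639 in GFP+/- cells, against 36654 in NT cells. The 8 of 10 endothelial and mural markers summed to 2170 to 3958 in GFP+, 9216 to 11440 in GFP+/- cells, against 1780 in NT cells, and the 3 of 7 erythroid ones to 3532 to 3721 in GFP+, 6006 to 8683 in GFP+/- cells, against 405 in NT cells. Sums weigh bright probe sets most. In GFP+ over GFP+/- cells 5 of the 8 endothelial and mural markers had log2 differences above 0 (median 0.06). So did 2 of the 3 erythroid ones (median 0.20) and 8 of the 9 measured microglial ones (median 1.23). The lowest signal of a microglial marker was 1.58. For the neuronal markers the median was 0.55, against 0.13 over all probe sets. The 9 of 13 microglial markers summed to 948 to 1079 in GFP+, 524 to 675 in GFP+/- cells, against 996 in NT cells, and the 7 of 9 oligodendrocyte markers to 1254 to 1412 in GFP+, 982 to 1140 in GFP+/- cells, against 1063 in NT cells. No marker was at 0, and *Trh* itself was dim, with 115 and 141 in GFP+, 109 and 106 in GFP+/- cells, against 96.6 in NT cells. In mixed cells, fewer cells of a type and less RNA per cell cannot be told apart, and the part of cell makeup in the values above was not tested.

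The rest of the p53 pathway was described from 98 listed genes, of which 38 had a probe set of their own and were read from the brightest one. In GFP+ against GFP+/- cells 0 of the 38 passed (limma, as of all 8740), while before adjustment (p under 0.05) 7 were higher (9.15% of all probe sets) and 3 lower (4.75% of all). By the ratio of averaged signals 4 were more than 2-fold higher (8.89% of all) and 0 lower (4.18% of all). The median was 0.02, against 0.13 over all probe sets. The list holds genes of opposite action, such as *Cdk4* beside *Klf4*, so its medians do not show whether the pathway moved. In GFP+ against NT cells 5 were higher (4.38% of all) and 1 lower (4.06% of all), with a median of 0.17, against 0.06 over all. In GFP+/- against NT cells 4 were higher (4.20% of all) and 1 lower (5.03% of all), with a median of 0.15, against -0.09 over all. The shares cover all probe sets, dim ones included, whereas each gene was read from its brightest, so they are not a like measure. The 5 higher in GFP+ than in NT cells include *Klf4* and *Atf3*, which the study picked from these arrays. Each of these 11 calls was lost with a prior variance that ignores the signal level and without any 1 of the 4 GFP+ and GFP+/- arrays.
Of 6 regulators of p53 and Mdm2, 0 were more than 2-fold apart between GFP+ and GFP+/- cells. They include *Rpl11* and *Rpl23*, ribosomal proteins that bind and block Mdm2. *Rpl11* had 14756 and 14283 in GFP+, 16110.1 and 10828 in GFP+/- cells, against 9378 in NT cells, and *Rpl23* 40455 and 36754 in GFP+, 32497 and 46065 in GFP+/- cells, against 23909 in NT cells, so both overlapped between the transfected populations. The stress kinase *Mapk14* (p38) had 1637 and 1941 in GFP+, 1303 and 1357 in GFP+/- cells, against 1577 in NT cells. For *Parp1*, a sensor of DNA breaks, GFP+/- cells exceeded NT cells (1.01, SE 0.22, adjusted p = 0.0493).
A further 13 genes were of growth arrest or of the cell cycle, cyclins and their kinases included. Of these, *Klf4* and *Atf3* were more than 2-fold brighter in GFP+ than in GFP+/- cells. Both are genes that the study picked from these arrays. *Klf4*, a factor that acts on the *Cdkn1a* promoter together with p53, had 749 and 581 in GFP+, 176 and 115 in GFP+/- cells, against 154 in NT cells. *Atf3*, a stress factor that binds p53, had 1172 and 673 in GFP+, 242 and 277 in GFP+/- cells, against 162 in NT cells. Both were higher in GFP+ than in NT cells (2.10, SE 0.36, adjusted p = 0.0275, and 2.45, SE 0.37, adjusted p = 0.0218). *Cdk4*, a kinase of G1 phase, was lower than in NT cells (-1.10, SE 0.20, adjusted p = 0.0341), with 2067 and 2295 in GFP+, 3131 and 2847 in GFP+/- cells, against 4671 in NT cells. *Pcna*, the replication clamp that p21 binds, had 2811 and 4231 in GFP+, 5333 and 5882 in GFP+/- cells, against 7627 in NT cells, lowest in GFP+ cells without overlap, and did not pass over NT cells (-1.15 for GFP+ cells, adjusted p = 0.0761). *Btg1* and *Ccnb1* had log2 differences of 0.06 and -0.62 over GFP+/- cells, with the GFP+ arrays of *Ccnb1* at 908 and 2537. *Cdkn1b* (p27) was dim, with a signal of 2.60 in NT cells, and GFP+/- cells exceeded NT cells (2.81, SE 0.59, adjusted p = 0.0432), but with 16 added to each signal the difference was 0.88 and did not pass.
Of 12 genes of apoptosis, *Faslg*, the Fas ligand, was the one more than 2-fold brighter in GFP+ than in GFP+/- cells. It had 172 and 174 in GFP+, 36.5 and 28.4 in GFP+/- cells, against 32.1 in NT cells, which set it apart from NT cells too (2.43, SE 0.46, adjusted p = 0.0353). *Bad*, which promotes cell death, overlapped in both transfected populations (3231 and 2908 in GFP+, 3540.0 and 2768 in GFP+/- cells), and each was higher than NT cells (1408), by 1.12 (SE 0.23, adjusted p = 0.0452) and 1.15 (SE 0.23, adjusted p = 0.0397). *Bid*, *Igfbp3* and *Tnfrsf1a* had log2 differences of -0.20, 0.22 and -0.15 over GFP+/- cells.
Of 7 genes of repair and metabolism, the glutathione peroxidase *Gpx1* was higher in both transfected populations than in NT cells (1.08, adjusted p = 0.0481, in GFP+ and 1.44, adjusted p = 0.0244, in GFP+/- cells). *Zmat3*, an RNA-binding target of p53, had 483 and 382 in GFP+, 212 and 275 in GFP+/- cells, against 315 in NT cells, and its GFP+ arrays were the highest. *Ephx1*, an epoxide hydrolase, had 646 and 231 in GFP+, 158 and 116 in GFP+/- cells, against 125 in NT cells, with the GFP+ arrays 2.80-fold apart. The repair nuclease *Apex1* had a log2 difference of 0.07 over GFP+/- cells, and *Tgfa*, a dim one, was lower in GFP+/- than in NT cells (-2.94, SE 0.58, adjusted p = 0.0371).

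**Figure D3:**
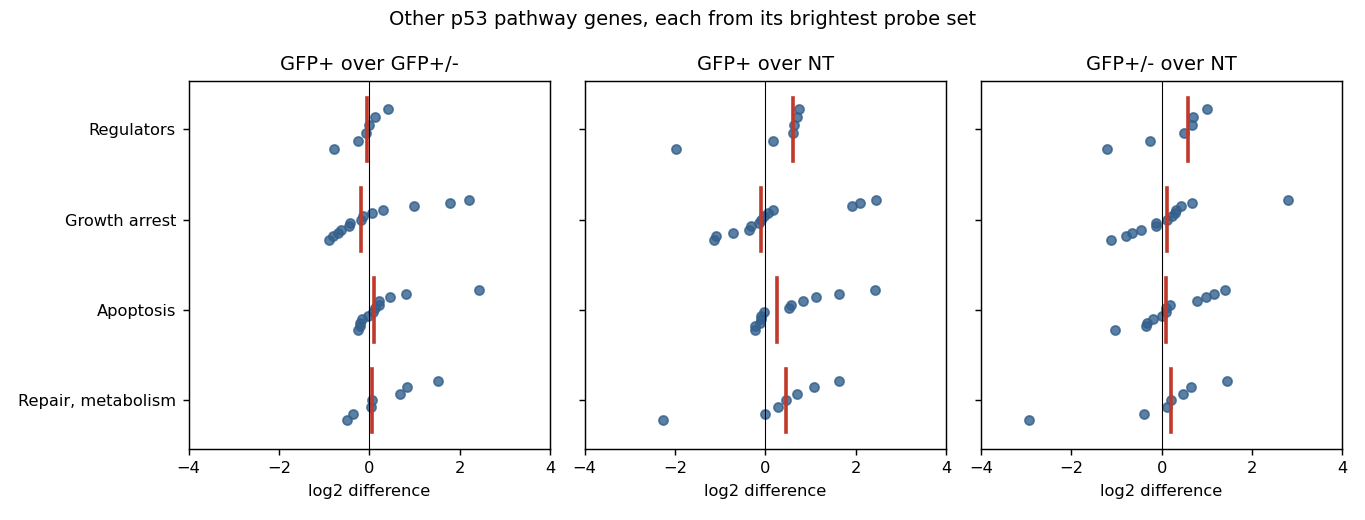
Log2 differences (horizontal axis) of 38 other p53 pathway genes by role, each point a gene read from its brightest probe set and each red bar the median of its role, for GFP+ over GFP+/-, GFP+ over NT and GFP+/- over NT cells. In the first panel the medians lie between -0.18 and 0.11. The points farthest to its right are *Faslg* (2.43), *Klf4* (2.21) and *Atf3* (1.78). A role can hold genes of opposite action, and that of growth arrest includes cyclins and their kinases.

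The pattern of the brightest *Mdm2* probe set over the 5 arrays was then set against 2950 others among the brightest 41% that have 1 symbol, by the root mean square difference of log2 signals after each was centred on its own mean. The median over these was 1.53. The closest was *Txnip*, whose product inhibits thioredoxin, at 0.26, with signals of 1287 and 1219 in GFP+, 218 and 159 in GFP+/- cells, against 179 in NT cells. Next came *Klf4* (0.55), the heavy neurofilament subunit *Nefh* (0.58), *Ppp1r15a*, a phosphatase subunit of the stress response (0.64), and *Atf3* (0.70). Of the p53 targets, the brighter *Cdkn1a* probe set was at 0.86 and came 17th in this order. The dim *Mdm2* probe set AA875509_at was at 1.07, *Ccng1* at 1.48 and the *Gadd45a* probe sets at 1.53 to 2.39. *Mdm2* AA108308_i_at and AA108308_s_at were at 1.30 and 1.44, and the dimmer *Cdkn1a* probe set was at 0.97. From these same arrays the paper lists *Mdm2*, *Txnip*, *Klf4*, *Nefh* and *Atf3* among the transcripts enriched in GFP+ cells. *Myd116*, another name of *Ppp1r15a*, is listed there as a similar sequence. The paper's RT-PCR found *Nefh*, *Klf4* and *Txnip* (as *Vdup1*) raised in GFP+ cells, and *Mdm2* is not named among its checks. The list of enriched transcripts gives the *Mdm2* entry as a sequence similar to that protein. The paper's list of transcripts detected only in GFP+ cells at its thresholds also holds *Mdm2*, as a predicted gene. The likeness to *Mdm2* describes 5 arrays and nothing more.

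**Figure D4:**
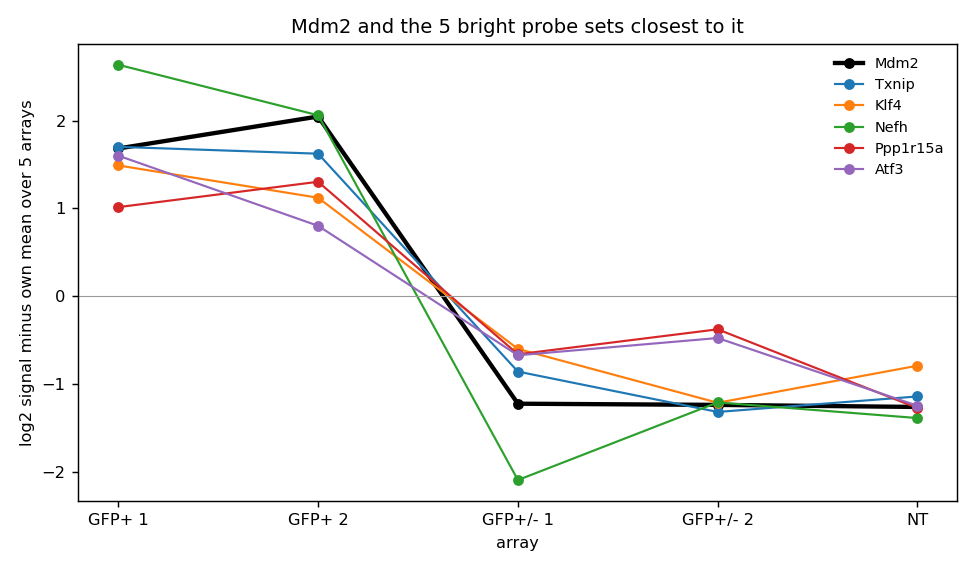
Log2 signal minus each probe set's own mean over the 5 arrays (vertical axis) on each array, for the brightest *Mdm2* probe set and the 5 closest to it. All 6 lie above 0 on both GFP+ arrays and below 0 on the other 3, and *Txnip*, at a distance of 0.26, runs nearest to *Mdm2*.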

How the data were processed

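The authors hybridized biotinylated cRNA to Affymetrix rat arrays and summarised each probe set with MAS 5.0 (version not given in the sources used here). The deposited values are linear signal intensities, with the same trimmed mean (501) on each of the 5 arrays, which is not the scaling target that the methods state, so how the printed scale came about is not given in the sources used here. Every column was mapped to a population. Of 8799 probe sets, 59 controls were left out. The platform annotation gave 1 symbol for 7006 of the 8740 others, several for 308 and none for 1426, and 6985 were updated to RefSeq symbols (GRCr8) by Entrez ID.

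Signals under 1 were set to 1 and log2 taken. A linear model of the 3 populations was fitted by limma 3.58.1 (R 4.3.3), its prior variance following the signal level. The Benjamini-Hochberg adjustment covered 8740 probe sets, with 0.05 as the threshold. Steps were tested on simulated data. Named are all probe sets of the 6 genes, of each role of the pathway list the 4 brightest genes and those that passed over NT cells, and the 5 probe sets closest to *Mdm2*. The genes and lists were chosen with earlier results of these data known. Alternatives were quantile normalization, equal medians, 16 added to each signal, the brightest 41% only, a prior without a trend, averaging over the probe sets of a gene, only the GFP+ and GFP+/- arrays, a replicate block, and each of these arrays left out. Arrays carry no read depth, so their number limits the precision. Promoters came from RefSeq. Python 3.11.15 (pandas 2.3.3, numpy 2.4.6, matplotlib 3.10.9) served for tables and plots.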

Additional observations from a re-analysis of the deposited data

How the results depend on the processing

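With quantile normalization, equal medians or 16 added to each signal, the calls of *Mdm2*, *Cdkn1a*, *Ccng1* and *Gadd45a* over NT cells held, and the numbers of the 11 probe sets past 2-fold or past the test did not change, except that 4 instead of 5 were 2-fold higher in GFP+ than in GFP+/- cells with 16 added. The median over all probe sets in GFP+ over GFP+/- cells shifted to -0.0045 with quantile normalization and -0.03 with equal medians, against 0.13 as deposited, and in GFP+/- over NT cells to 0.02 with either, against -0.09. Among the brightest 41%, 3 instead of 5 were more than 2-fold higher in GFP+ than in GFP+/- cells, and in GFP+/- against NT cells 1 was higher instead of 0 (*Gadd45a* rc_AI070295_at, adjusted p = 0.0160) and 1 lower instead of 2, where 4 of the 11 were tested. With a prior without a trend, 0 passed over NT in GFP+ and 0 in GFP+/- cells, and over all probe sets 1 was higher and 1 lower in each of these comparisons, against 383 and 355 in GFP+ and 367 and 440 in GFP+/- cells. The brightest 41% gave 598 and 535 in GFP+ and 588 and 574 in GFP+/- cells over NT, and 80 and 64 in GFP+ over GFP+/- cells.
With 1 array left out, 3 to 5 were 2-fold higher in GFP+ than in GFP+/- cells (3 without GFP+ replicate 1; those lost were *Cdkn1a* and *Ccng1*), 0 to 0 were higher in GFP+ than in NT cells and 0 to 1 lower in GFP+/- than in NT cells. Over all probe sets 1 was then higher and 0 lower in GFP+ than in NT cells, and 1 to 158 and 0 to 175 in GFP+/- than in NT cells.
A replicate block, with the number of the labels, left 5 higher and 1 lower by 2-fold and gave 1 higher and 1 lower call over all probe sets, against 0 and 0 without it. The same-numbered arrays share only a number (correlation of deviations 0.063, or 0.20 for the brightest 41%). For the NT comparisons no paired analysis was possible because NT has 1 array.
Of the 38 pathway genes, GFP+ cells had 2 that were 2-fold below GFP+/- cells with quantile normalization, 1 with equal medians and 1 with probe sets averaged by gene, instead of 0. Over NT, 3 instead of 5 were higher in GFP+ cells with equal medians, 2 instead of 1 lower among the brightest 41% and with probe sets averaged, and 2 instead of 4 were higher in GFP+/- cells when averaged.
Small differences changed sign. Over NT these were *Mdm2* AA108308_i_at in GFP+/- over NT with quantile normalization (0.17), *Mdm2* AA875509_at in GFP+ over NT without GFP+ replicate 2 (-0.076, against 0.93 without GFP+ replicate 1), *Cdkn1a* L41275cds_s_at in GFP+/- over NT without GFP+/- replicate 2 (-0.0022, against 0.59 without GFP+/- replicate 1), and M60921_g_at in GFP+/- over NT with quantile normalization (0.0093), equal medians (0.015) and without GFP+/- replicate 2 (0.071, against -0.27 without GFP+/- replicate 1). In GFP+ over GFP+/- cells they were *Mdm2* AA108308_s_at without GFP+/- replicate 1 (0.15), *Ccnb1* (0.12) and *Igfbp3* (-0.24) without GFP+ replicate 1 and *Bid* without GFP+ replicate 2 (0.18), and also *Rpl23*, *Rpl11*, *Btg1*, *Bad* and *Apex1*, at most 0.25 from 0 after the change. The cause was not tested. Dim probe sets limit the precision.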
